A study of Homo sapiens with 6 samples.

Results

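The subunits of the mitochondrial respiratory chain and ATP synthase were followed in cells labelled A549, a human line derived from a lung adenocarcinoma, given rhTR11B or phosphate-buffered saline (PBS). Genes were taken by symbol: the 13 subunits encoded in mitochondrial DNA, and the nuclear genes named as subunits of complexes I (NDUF), II (SDH), III (UQCR and CYC1), IV (COX4 to COX8) and V (ATP5), without assembly factors and antisense genes. This gave 95 of the 19876 symbols in the table, 13 mitochondrial and 82 nuclear. The rule used names and no measured value.

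Both groups were labelled as wild-type A549 cells and grown in Dulbecco's modified Eagle's medium with fetal bovine serum and antibiotics. The treated group received rhTR11B, which the labels do not spell out; TR11B stands for TNFRSF11B, or osteoprotegerin, which is secreted and binds the ligands TNFSF11 and TNFSF10. The control group received PBS. No dose and no time are given. Each group held 3 libraries of total RNA, called biological replicates in the labels; no label says that they came from separate cultures, and the p-values then reflect a spread between libraries that may be only technical.

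Library totals ran from 36315751 to 36992958 counts with rhTR11B and from 37203313 to 38148838 counts with PBS. Levels are given as CPM, counts scaled to a common library size. On the first principal component of log2 CPM, with 36.4% of the variance, rhTR11B replicates 1 to 3 scored 2.66, 8.63 and 25.7, and PBS replicates 1 to 3 scored -5.96, -18.4 and -12.7; rhTR11B replicate 3 stood apart from its group. Of the tested genes, 31.2% were highest and 30.04% lowest in that library. The keratins KRT8, KRT18 and KRT7 of epithelial cells were abundant in every library (351 to 924 CPM with rhTR11B, 364 to 961 CPM with PBS), whereas the epithelial markers CDH1, EPCAM and KRT19 had 0 to 10 counts. These defining epithelial markers were thus nearly absent from cells labelled as lung adenocarcinoma; AKR1C1 and AKR1B10, also on the marker list, were not analysed here, and the identity of the line was not tested further. Markers of other cells were low: 6 fibroblast genes summed to 4.35 to 6.49 CPM with rhTR11B and 2.75 to 3.70 CPM with PBS, with DCN, PDGFRA, PDGFRB and COL3A1 at 10 counts or fewer, and 4 endothelial and blood genes to 0.429 to 0.786 CPM with rhTR11B and 0.446 to 0.597 CPM with PBS. In the fibroblast sum, COL1A1 had 178, 203 and 138 counts with rhTR11B, against 125, 99 and 126 counts with PBS, without overlap. Its log2 fold change was 0.62 (edgeR adjusted p = 0.0511, DESeq2 adjusted p = 0.0205). LUM had 6, 27 and 11 counts with rhTR11B, against 6, 2 and 8 counts with PBS.

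The respiratory chain passes electrons from NADH (complex I) or succinate (complex II) through ubiquinone, complex III and cytochrome c to oxygen at complex IV, and complexes I, III and IV pump protons across the inner mitochondrial membrane. Complex V, the ATP synthase, lets protons return and makes ATP. Complexes I, III, IV and V are assembled from subunits of both genomes, and complex II from nuclear subunits alone. The mitochondrial subunits are transcribed inside the organelle as long RNAs that are cut into mature messengers; the nuclear subunits are transcribed in the nucleus, translated in the cytosol and imported.

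With rhTR11B, the fitted fold change over PBS was above 1 for all 13 mitochondrially encoded subunits (median 1.26-fold) and below 1 for 70 of the 79 nuclear encoded subunits that were tested (median 0.927-fold over the 79). Few single genes passed the test. At an adjusted p under 0.05 (edgeR's quasi-likelihood test, adjusted by Benjamini-Hochberg over 13567 tested genes), CYTB, COX2 and ATP6 were higher, UQCRH and ATP5MK were lower, and 10 mitochondrial and 77 nuclear subunits did not pass. Over all tested genes 3.60% were called, 2.92% higher and 0.678% lower, and 50.0% had a log2 fold change below 0. The median log2 fold change (rhTR11B over PBS) was 0.33 for the mitochondrial subunits and -0.11 for the nuclear ones, against 0.0001 for all tested genes. Without rhTR11B replicate 3, 12 of 13 mitochondrial subunits were above 0 (median 0.22) and 69 of 79 nuclear subunits below 0 (median -0.08). In bulk RNA, fewer cells of a kind and less RNA per cell cannot be told apart.

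**Figure D1:**
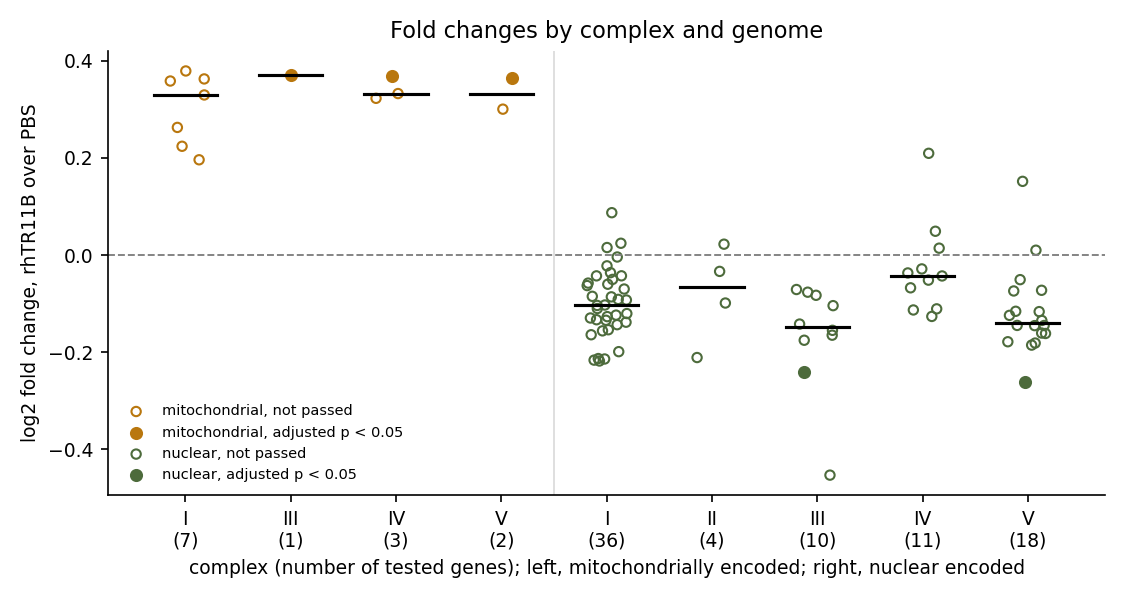
Log2 fold change (rhTR11B over PBS) of each tested subunit by complex, mitochondrial and nuclear subunits in separate columns, with filled points for those with an adjusted p under 0.05 and short lines for medians. Mitochondrial subunits lie between 0.20 and 0.38, and 70 of 79 nuclear subunits lie below 0.

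The mitochondrial genes carry short names in this table: COX2 here is subunit 2 of cytochrome c oxidase, not the cyclooxygenase PTGS2. In complex IV, COX2, which receives electrons from cytochrome c, lies at positions 7586 to 8269 of the mitochondrial genome (GRCh38). It had 9229, 7850.0 and 10601 CPM in the rhTR11B libraries, against 7594, 6622 and 7222 CPM in the PBS libraries. The groups did not overlap, and rhTR11B replicate 3 was the highest. The means were 9227 ± 1375 CPM with rhTR11B and 7146 ± 490.4 CPM with PBS (SD, n = 3 each), a log2 fold change of 0.37 (SE 0.09, edgeR adjusted p = 0.0400). COX1, the catalytic subunit, had 26214, 23705 and 31491 CPM with rhTR11B, against 22810.2, 20075 and 22209.9 CPM with PBS; it was separate between groups but did not pass (0.32, adjusted p = 0.0636). COX3, the remaining mitochondrial subunit of complex IV, had a log2 fold change of 0.33 (adjusted p = 0.0590) and also did not overlap.

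In complex III, the only mitochondrial subunit is CYTB, cytochrome b, which holds the ubiquinol and ubiquinone sites (mitochondrial positions 14747 to 15887). CYTB had 5286, 4651 and 6317 CPM with rhTR11B, against 4566, 3679 and 4319 CPM with PBS. The groups did not overlap, the lowest rhTR11B library lying just above the highest PBS library. CYTB averaged 5418 ± 841 CPM with rhTR11B and 4188 ± 458 CPM with PBS (SD, n = 3 each; log2 fold change 0.37, SE 0.10, edgeR adjusted p = 0.0472).

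In complex V, ATP6, which forms the proton channel with the c ring (positions 8527 to 9207), had 6223, 5461 and 7519 CPM with rhTR11B, against 5371, 4485 and 5061 CPM with PBS. Its groups did not overlap, and its means were 6401 ± 1040.4 CPM with rhTR11B and 4972 ± 449 CPM with PBS (SD, n = 3 each; log2 fold change 0.36, SE 0.10, edgeR adjusted p = 0.0478). ATP8, a small membrane subunit, had 268, 311 and 514 CPM with rhTR11B, against 338, 213 and 338 CPM with PBS. Only rhTR11B replicate 3 exceeded all PBS libraries, and the difference did not pass (0.30, adjusted p = 0.314); without that library the log2 fold change of ATP8 was -0.029. ATP8 and ATP6 are read from the same RNA in different frames and share 46 bases, 22.2% of ATP8, so reads there belong to both genes and how they were counted is not given in the sources used here. The reference sequence of ATP8 (positions 8366 to 8572, plus strand, GENCODE 29) is shown because of this overlap, with the shared bases in capitals. Per length, the level of ATP8 over that of ATP6 was 0.142, 0.188 and 0.225 with rhTR11B, against 0.207, 0.156 and 0.220 with PBS, so the groups overlapped.
ATP8: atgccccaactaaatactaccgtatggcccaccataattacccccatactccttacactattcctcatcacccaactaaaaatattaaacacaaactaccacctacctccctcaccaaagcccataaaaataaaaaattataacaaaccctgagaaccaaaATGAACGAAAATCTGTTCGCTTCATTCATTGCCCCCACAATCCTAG

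The 7 mitochondrial subunits of complex I sit in its membrane arm. ND5, ND4 and ND2 belong to the proton-pumping part; ND5 had 3802, 3429 and 4816 CPM with rhTR11B, against 3349.5, 2677 and 3237 CPM with PBS. ND5 was above PBS in every rhTR11B library and had the largest log2 fold change of the 13, 0.38 (SE 0.10), with an edgeR adjusted p of 0.0516, just outside the threshold. ND2 (0.33, adjusted p = 0.0528), ND3 (0.36, adjusted p = 0.0556), ND4 (0.36, adjusted p = 0.0574) and ND4L (0.26, adjusted p = 0.0635) also had groups that did not overlap. ND1, next to the ubiquinone site, had 5546, 4942 and 6198 CPM with rhTR11B, against 5011, 4421 and 4855 CPM with PBS; rhTR11B replicate 2 lay under PBS replicate 1 (0.22, adjusted p = 0.110). ND4L and ND4 share 7 bases, in capitals at the end of ND4L (mitochondrial positions 10707 to 10766, plus strand). The level of ND4L over that of ND4, per length, was 0.555, 0.581 and 0.512 with rhTR11B, against 0.583, 0.605 and 0.567 with PBS, with overlap.
ND4L end: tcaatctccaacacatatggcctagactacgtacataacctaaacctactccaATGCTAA

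ND6 ordered the libraries in another way. It had 62.3, 48.0 and 34.4 CPM with rhTR11B, against 45.8, 36.8 and 43.7 CPM with PBS. rhTR11B replicate 3, the highest library for the other 12 genes, was the lowest for ND6, and rhTR11B replicate 1 was the highest. The log2 fold change was 0.20 (SE 0.14, edgeR adjusted p = 0.400); it was 0.39 (adjusted p = 0.0120) without rhTR11B replicate 3 and -0.031 without rhTR11B replicate 1. For every 1000 counts of ND5, its neighbour on the opposite strand, ND6 had 16.4, 14.0 and 7.14 counts with rhTR11B, against 13.7, 13.7 and 13.5 counts with PBS: the PBS libraries were alike, and rhTR11B replicate 3 stood below all others. ND6 is the only subunit read from the other strand of mitochondrial DNA. Without strand in the counting, its reads and those of RNA from the facing strand cannot be told apart. The first 60 bases of both genes (no capitals) are shown because their base composition differs by strand: ND6 is 35.6% G and 37.7% T over its length, and ND5 is 10.6% G and 24.7% T.
ND6 start: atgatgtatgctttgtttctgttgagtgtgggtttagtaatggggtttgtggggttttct
ND5 start: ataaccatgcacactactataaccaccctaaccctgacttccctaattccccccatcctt

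Across the 13 genes, 10 had groups that did not overlap, all with rhTR11B above PBS (15.1% of all tested genes did so), and 11 had an unadjusted p under 0.05 (13.8% of all tested genes, higher). The exceptions to separation were ND1, ND6 and ATP8. rhTR11B replicate 3 was the highest library for 12 of 13, and PBS replicate 2 the lowest for 12 of 13. As these genes are cut from shared long RNAs and measured in the same 6 libraries, they are not 13 separate measurements. The calls changed when a library was left out. Without PBS replicate 1 only CYTB was called, and without PBS replicate 2 or PBS replicate 3 none was. Without rhTR11B replicate 1, 2 or 3 there were 11, 10 and 9 calls. Calls of higher genes over the whole table moved too, from 396 to 255, 18 and 9 without PBS replicate 1, 2 or 3. They were 903, 385 and 295 without rhTR11B replicate 1, 2 or 3. Without PBS replicate 2 and PBS replicate 3, 10 and 11 of the 13 still had an unadjusted p under 0.05. Over all genes, 2258 of 13765 and 2424 of 13748 did so in either direction. The tool mattered too: in the Wald test of DESeq2 COX2 kept its call (adjusted p = 0.00204), CYTB and ATP6 lost theirs (0.109 and 0.108), and COX1, COX3, ND1, ND2 and ND4L were called; limma-trend on FPKM and a fit on genes with a mean of at least 5 CPM called none.

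**Figure D2:**
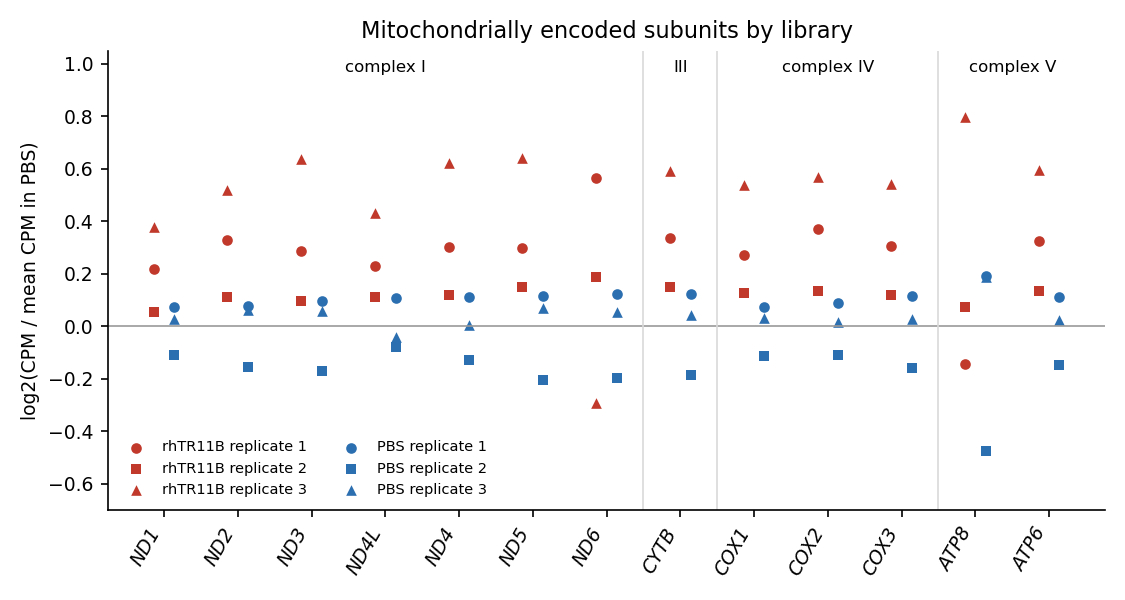
Log2 of CPM over the mean CPM of the 3 PBS libraries for each mitochondrial subunit, with a point per library, ordered by complex. The rhTR11B points lie above the PBS points for 10 genes; for ND6, rhTR11B replicate 3 is the lowest point of all 6.

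Of the 79 nuclear subunits tested, 30 had groups that did not overlap with rhTR11B below PBS (14.0% of all tested genes did so) and 1, COX6A1, with rhTR11B above. At an unadjusted p under 0.05, 24 were lower (10.3% of all tested genes) and 1 higher. Per complex, the count of log2 fold changes below 0 was 33 of 36 in complex I (median -0.10), 3 of 4 in complex II (-0.07), 10 of 10 in complex III (-0.15), 8 of 11 in complex IV (-0.04) and 16 of 18 in complex V (-0.14). Of 3 members with few counts, COX6B2 had 4, 11 and 10 counts with rhTR11B and 7, 7 and 1 counts with PBS, ATP5MGL had 0, 5 and 1 counts with rhTR11B and 0, 1 and 0 counts with PBS, and COX8C had 0, 0 and 0 counts with rhTR11B and 1, 0 and 0 counts with PBS; they were not tested.

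In complex III 1 nuclear subunit passed. UQCRH, the hinge protein that helps cytochrome c1 meet cytochrome c, lies on chromosome 1 (46303698 to 46316776, GRCh38). It had 150.2, 142 and 127 CPM with rhTR11B, against 165, 167 and 163 CPM with PBS. The PBS libraries were within a few CPM of each other, all above the rhTR11B libraries, and rhTR11B replicate 3 was the lowest. UQCRH fell to 139 ± 11.9 CPM with rhTR11B, against 165 ± 2.17 CPM with PBS (SD, n = 3 each; log2 fold change -0.24, SE 0.06, edgeR adjusted p = 0.0468). Its near-identical copy UQCRHL had 4.53, 4.07 and 3.06 CPM with rhTR11B, against 5.48, 5.35 and 5.14 CPM with PBS (-0.45, adjusted p = 0.0900). UQCRHL held 2.36% to 2.93% of the joint counts with rhTR11B and 3.06% to 3.22% with PBS; how reads that match both were shared is not given, so the split is uncertain. UQCRFS1, the Rieske iron-sulfur protein, had 103, 100.02 and 85.5 CPM with rhTR11B, against 107, 108 and 111 CPM with PBS, did not overlap, and did not pass (-0.18, adjusted p = 0.125). CYC1, the cytochrome c1 that hands electrons to cytochrome c, was chosen after its values were seen; it had 219, 207 and 211 CPM with rhTR11B, against 231, 229 and 242 CPM with PBS (-0.14, adjusted p = 0.136). The 6 members UQCRH, UQCRHL, UQCRFS1, CYC1, UQCR10 and UQCRB were separate between groups with rhTR11B below PBS, as were 14.0% of all tested genes. UQCRH and UQCRHL are counted separately here, although the split of their reads is uncertain. The core proteins UQCRC1 and UQCRC2 and the small subunits UQCR11 and UQCRQ overlapped.

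In complex V, ATP5MK, a small membrane subunit also called DAPIT, lies on chromosome 10 (103389050 to 103396475, minus strand). It had 37.8, 37.7 and 33.8 CPM with rhTR11B, against 41.2, 46.2 and 43.6 CPM with PBS, with no overlap. ATP5MK fell to 36.5 ± 2.27 CPM with rhTR11B, against 43.7 ± 2.50 CPM with PBS (SD, n = 3 each; log2 fold change -0.26, SE 0.07, edgeR adjusted p = 0.0496). ATP5F1B, the catalytic beta subunit and the most abundant nuclear member per length, had 1059, 1004 and 952 CPM with rhTR11B, against 1092, 1156 and 1170.2 CPM with PBS. Every rhTR11B library was lower, but ATP5F1B did not pass in the main edgeR fit (-0.18, adjusted p = 0.0957). The rotor's gamma subunit ATP5F1C (-0.19, adjusted p = 0.0742) and the membrane subunit ATP5MG (-0.18, adjusted p = 0.0918) were alike in this. The Wald test of DESeq2 called ATP5F1B (adjusted p = 0.0310) and ATP5F1C (0.0399) lower, but not ATP5MG (0.0621). It called 346 of 11724 genes lower over the whole table. ATP5F1A, the alpha subunit that alternates with beta in the head, and the inhibitor ATP5IF1, which blocks ATP hydrolysis, were chosen after their values were seen. ATP5F1A had 733, 691 and 667 CPM with rhTR11B, against 738, 788 and 786 CPM with PBS (-0.14, adjusted p = 0.160), without overlap. ATP5IF1 had 50.7, 50.3 and 49.1 CPM with rhTR11B, against 52.0, 48.4 and 55.1 CPM with PBS (-0.05, adjusted p = 0.682), with overlap. By place in the enzyme, the median was -0.16 for the 5 ATP5F1 genes, which include rotor subunits such as ATP5F1C, with 4 below 0 and ATP5F1E at 0.15. The median was -0.14 for the stator stalk with 4 of 4 below 0, and -0.12 for the membrane part.

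The calls of UQCRH and ATP5MK also changed when a library was left out. Both were kept without rhTR11B replicate 1, where 10 nuclear subunits, and 427 genes over the whole table, were called lower. Without any other library neither was called, and the highest edgeR adjusted p over the 6 reductions was 0.194 for UQCRH and 0.219 for ATP5MK. The log2 fold change ran from -0.297 to -0.175 for UQCRH and from -0.301 to -0.209 for ATP5MK. Of the 79 or 80 nuclear subunits tested, 16 to 21 had an unadjusted p under 0.05, in either direction, in the 5 reductions without a call. Over all genes in these reductions, 2258 to 3105 of 13730 to 13765 had one, and 3 to 86 were called lower. Limma-trend on FPKM, a fit on genes with a mean of at least 5 CPM and a fit without the mitochondrial genes called neither. Limma-voom called UQCRH alone of all nuclear subunits, and DESeq2 called both (adjusted p = 0.0130 for UQCRH and 0.0209 for ATP5MK). Of the other members of complexes II, III and V, no low-count filter called SDHD, UQCRHL and ATP5F1B lower. Without rhTR11B replicate 1, UQCRHL, ATP5F1C, ATP5PB and ATP5PD were. These settings called 483 and 427 genes lower over the whole table.

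In complex I none of the 36 nuclear subunits passed in the main edgeR fit, where 8 had an unadjusted p under 0.05, all lower (10.3% of all tested genes). The Wald test of DESeq2 called 2 of the 36 lower, NDUFS5 and NDUFV2. Other edgeR settings also called members lower. These were NDUFS5 and NDUFS6 with a replicate block, both and NDUFV2 with no low-count filter, and all of these and NDUFA12 without rhTR11B replicate 1. Over the whole table, the main fit called 92 of 13567 genes lower, and DESeq2 346 of 11724. The block called 252 of 13567, no low-count filter 483 of 19876, and the fit without rhTR11B replicate 1 called 427 of 13761. The smallest adjusted p belonged to accessory subunits and a core subunit: NDUFS5, an accessory subunit of the intermembrane space side, had 109, 109.9 and 97.7 CPM with rhTR11B, against 118, 125 and 125 CPM with PBS (-0.22, adjusted p = 0.0553). NDUFV2, a core iron-sulfur subunit of the NADH-oxidizing module, had 74.9, 73.1 and 68.1 CPM with rhTR11B, against 81.9, 80.5 and 85.6 CPM with PBS (-0.20, adjusted p = 0.0664). The small membrane subunit NDUFC1 had 29.3, 26.5 and 26.4 CPM with rhTR11B, against 29.8, 32.9 and 32.6 CPM with PBS (-0.21, adjusted p = 0.0937). These 3 genes did not overlap between groups. The 7 core subunits were all below 0 (median -0.08), as were 26 of 29 accessory subunits (median -0.11). NDUFB9, the accessory subunit with the highest level per length, had 202, 182 and 209 CPM with rhTR11B, against 194, 177 and 187 CPM with PBS; the groups overlapped (0.09, adjusted p = 0.416).

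Complex II, succinate dehydrogenase, has no mitochondrial subunit. Its membrane anchor SDHD had 53.4, 56.8 and 48.8 CPM with rhTR11B, against 61.7, 68.1 and 54.3 CPM with PBS, with overlap (-0.21, adjusted p = 0.117). The iron-sulfur subunit SDHB (-0.10, adjusted p = 0.340) and the other anchor SDHC (-0.03, adjusted p = 0.781) did not pass, and SDHC changed sign without PBS replicate 3 or rhTR11B replicate 3. The catalytic flavoprotein SDHA, chosen after its values were seen, had 431, 428 and 462 CPM with rhTR11B, against 439, 411 and 451 CPM with PBS, and its groups overlapped (0.02, adjusted p = 0.858).

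In complex IV the nuclear subunits, which surround the mitochondrial core, differed little. COX6A1, an accessory subunit of the intermembrane space side, had 170.3, 169 and 214 CPM with rhTR11B, against 168, 145 and 165 CPM with PBS: every rhTR11B library was above the PBS libraries, 2 of them by a small margin, and rhTR11B replicate 3 by a wide one (0.21, SE 0.08, adjusted p = 0.128). COX7C had 166, 159 and 150.02 CPM with rhTR11B, against 170.5, 174 and 174 CPM with PBS, without overlap (-0.13, adjusted p = 0.189). COX5A, a subunit of the matrix side, was also lower in each rhTR11B library than in each PBS library, without passing (-0.11, adjusted p = 0.255). Chosen after their values were seen, COX4I1, the largest nuclear subunit of complex IV, had 329 ± 14.3 CPM with rhTR11B and 337 ± 17.9 CPM with PBS, and NDUFA4, now placed in complex IV, had 110.5 ± 3.99 CPM with rhTR11B and 107 ± 0.890 CPM with PBS (SD, n = 3 each); the groups overlapped for both.

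**Figure D3:**
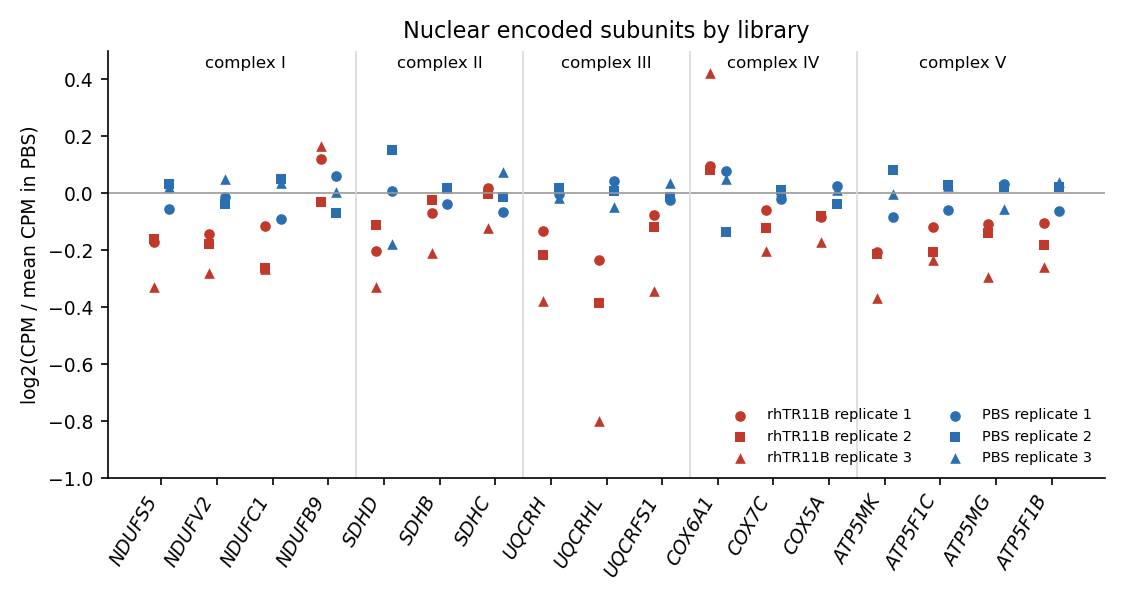
Log2 of CPM over the mean PBS CPM for the named nuclear subunits, with a point per library, ordered by complex. The rhTR11B points lie below the PBS points for UQCRH and ATP5MK, and above them for COX6A1.

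Nuclear subunits as a group were lowest in rhTR11B replicate 3 for 50 of 79 genes and highest in PBS replicate 3 for 35, whereas 12 of the 13 mitochondrial genes were highest in that same rhTR11B library. The nuclear subunits are short by the length that counts and FPKM imply, with a median of 1299 bases, against 3981 bases for all tested genes. This length is not the span of the gene on the chromosome. The mitochondrial subunits, all above 0, are shorter still, with a median of 784 bases. Genes called lower over the whole table had a median of 2261 bases, and genes called higher 4708.5 bases. MALAT1, an RNA kept in the nucleus, was higher with rhTR11B, at 401, 449 and 466 CPM with rhTR11B, against 352, 342 and 313 CPM with PBS (0.39, adjusted p = 0.00635; not called without PBS replicate 2 or 3, where the adjusted p reached 0.130). Of the other nuclear-retained RNAs in the table, NEAT1 had 1090.1, 1138 and 1446 CPM with rhTR11B, against 1102, 1009 and 956 CPM with PBS; its groups overlapped and it did not pass in edgeR (0.26, adjusted p = 0.0873), while DESeq2 called it higher (adjusted p = 0.0415). SNHG14 had 27.9, 25.5 and 28.1 CPM with rhTR11B, against 29.8, 29.1 and 26.6 CPM with PBS, with overlap (-0.07, adjusted p = 0.612). The part of gene length and of RNA from the nucleus in these differences was not tested. With the 13 mitochondrial genes left out of the library sizes and of the fit, 70 of 79 nuclear subunits were again below 0, with a median of -0.11. No nuclear subunit was then called, and 24 had an unadjusted p under 0.05 in either direction, as did 3220 of 13554 tested genes.

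Promoters of the called nuclear subunits, and of COX6A1, which did not pass but whose rhTR11B libraries were all above the PBS libraries, are shown from RefSeq (GRCh38.p14), each 300 bases around the annotated start. Capitals mark matches on either strand to CCGGAAG, the core letters that ETS family factors such as GABPA bind; matches on both strands may overlap each other. UQCRH has 1 match (chr1:46303448-46303747, plus strand), ATP5MK has 3, of which 2 overlap (chr10:103396426-103396725, minus strand), and COX6A1 has 1 (chr12:120437863-120438162, plus strand).
UQCRH promoter: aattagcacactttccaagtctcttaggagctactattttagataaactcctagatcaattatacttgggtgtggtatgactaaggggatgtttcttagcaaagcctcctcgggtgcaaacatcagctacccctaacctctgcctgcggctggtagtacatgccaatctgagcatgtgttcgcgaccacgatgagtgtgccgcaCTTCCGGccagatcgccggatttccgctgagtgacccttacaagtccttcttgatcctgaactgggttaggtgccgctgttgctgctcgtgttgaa
ATP5MK promoter: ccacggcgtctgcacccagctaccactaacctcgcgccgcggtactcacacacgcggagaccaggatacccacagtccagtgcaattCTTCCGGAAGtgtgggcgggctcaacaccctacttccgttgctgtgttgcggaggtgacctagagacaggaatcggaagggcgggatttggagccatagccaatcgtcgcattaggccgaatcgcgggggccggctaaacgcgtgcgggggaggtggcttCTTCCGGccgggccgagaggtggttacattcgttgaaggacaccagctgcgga
COX6A1 promoter: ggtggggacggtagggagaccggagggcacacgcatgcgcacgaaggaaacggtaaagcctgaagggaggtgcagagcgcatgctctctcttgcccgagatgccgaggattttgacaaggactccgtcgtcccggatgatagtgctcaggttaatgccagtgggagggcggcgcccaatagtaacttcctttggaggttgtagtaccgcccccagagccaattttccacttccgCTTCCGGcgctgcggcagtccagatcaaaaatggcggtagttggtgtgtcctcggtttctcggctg
A promoter was found for 66 of the 82 nuclear members. CCGGAAG was in 30.3% of them, against 19.7% of the promoters of tested genes and 10.7% of all 27195 promoters in the table. The NRF1 site, searched as GCGC, any base and TGCGC, was in 25.8% of member promoters, against 12.1% of tested genes and 6.30% of all, and AAGATGGCG, those of YY1, in 12.1%, against 3.98% of tested genes and 1.86% of all. At least 1 of the 3 motifs was in 38 of the 66. The windows of UQCRH, ATP5MK and COX6A1 hold no match to the letters searched for NRF1 or YY1.

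The balance of the genomes within a complex was taken as the mean FPKM (counts scaled by gene length and library total) of its mitochondrial subunits over that of its nuclear subunits in each library. In complex I this ratio was 66.5, 61.4 and 85.3 with rhTR11B, against 57.1, 49.4 and 53.1 with PBS. In complex III it was 56.1, 51.6 and 74.5 with rhTR11B, against 46.1, 37.3 and 42.5 with PBS. In complex IV it was 104, 95.0 and 122 with rhTR11B, against 87.9, 80.0 and 83.6 with PBS. Complex V had 51.6, 49.8 and 74.4 with rhTR11B, against 45.6, 35.8 and 42.1 with PBS. In each complex all rhTR11B libraries were above all PBS libraries, with rhTR11B replicate 3 the highest and PBS replicate 2 the lowest. The mean ratio with rhTR11B was 1.34, 1.45, 1.28 and 1.42 times that with PBS in complexes I, III, IV and V. These are descriptions of sums over members and carry no p. The 13 mitochondrial genes held 8.998% ± 1.26 of all counts with rhTR11B and 7.22% ± 0.547 with PBS (SD, n = 3 each), and the nuclear subunits 0.862% ± 0.0332 with rhTR11B and 0.933% ± 0.0103 with PBS.

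**Figure D4:**
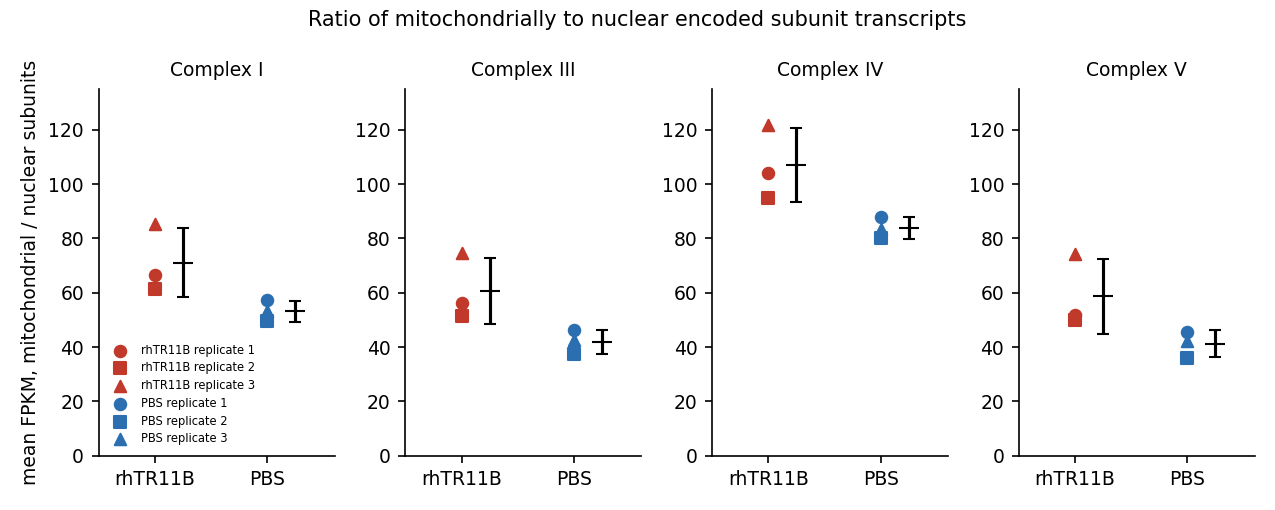
Ratio of mean mitochondrial to mean nuclear subunit FPKM in each library, for complexes I, III, IV and V. The rhTR11B points lie above the PBS points in all 4 complexes, and rhTR11B replicate 3 is the highest.

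The levels themselves, as mean FPKM over the 6 libraries, set the genomes far apart. The mitochondrial median was 5392 FPKM and the nuclear median 63.9 FPKM, against 6.17 FPKM for all tested genes. COX1 stood highest at 15808 FPKM, then COX2 at 11946 and COX3 at 11228 FPKM, ND4 at 9860.1 and ATP6 at 8334 FPKM, followed by ND4L at 5547, ND1 at 5392, CYTB at 4201, ND2 at 3982, ND3 at 2322, ND5 at 1956, ATP8 at 1592 and ND6 at 86.0 FPKM. Neighbours in this order differed by more than the SD of either gene in either group at 5 steps: COX1 over COX2, ATP6 over ND4L, ND1 over CYTB, ND2 over ND3, and ATP8 over ND6. The other neighbours did not. ND6 was lower than several nuclear subunits. Among nuclear members, ATP5F1B was highest at 609.6 FPKM. ATP5F1E, the epsilon subunit of the same enzyme, was lowest of those tested at 1.21 FPKM. ATP5F1E was chosen after its value was seen, and averaged 4.61 CPM with rhTR11B and 4.15 CPM with PBS. Its FPKM rests on an implied length of 3610 bases, against a median of 1299 bases for the tested nuclear subunits. How reads that overlap other genes were counted is not given. Whether ATP5F1E lost reads in this way was not tested, so its low level is uncertain. By complex the nuclear medians were 38.7 FPKM in I, 55.7 in II, 67.7 in III, 123 in IV and 79.3 FPKM in V. ATP5MC1, ATP5MC2 and ATP5MC3, also chosen after their values were seen, encode the same mature c subunit of the rotor ring and stood at 82.1, 49.8 and 43.6 FPKM.

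**Figure D5:**
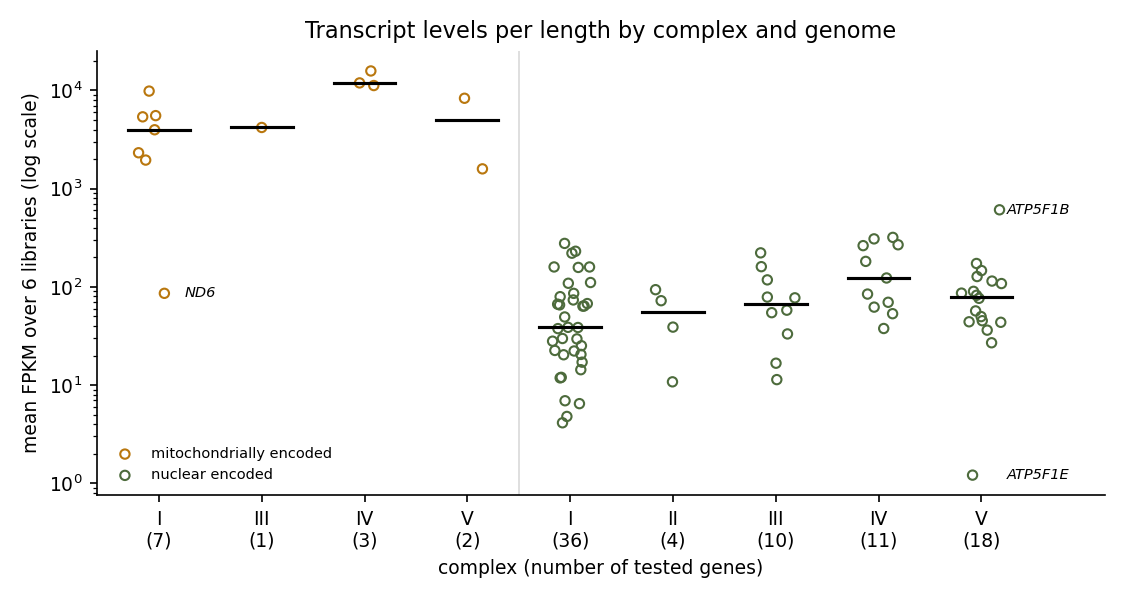
Mean FPKM of each tested subunit on a log axis, by complex and genome. Mitochondrial subunits lie above nuclear ones in each complex except for ND6, at 86.0 FPKM, which lies among the nuclear subunits of complex I.

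Genes that build and serve these complexes were given by lists. Of 56 tested assembly factors, 0 were higher, 2 were lower and 43 had a log2 fold change below 0 (median -0.08). Over all tested genes these shares were 2.92%, 0.678% and 50.0%. At an unadjusted p under 0.05 in edgeR, 1 factor was higher and 12 lower, against 13.8% and 10.3% of all tested genes. Both calls assemble complex IV: COA4 had 42.0, 38.1 and 38.2 CPM with rhTR11B, against 46.6, 48.1 and 47.2 CPM with PBS (-0.26, adjusted p = 0.0373), and COX20, a chaperone of COX2, had 50.1, 48.6 and 41.7 CPM with rhTR11B, against 55.4, 58.2 and 55.3 CPM with PBS (-0.27, adjusted p = 0.0474). The groups were separate for both. COA4 was called without rhTR11B replicate 1 or 3 and COX20 without rhTR11B replicate 1, and otherwise lost, with adjusted p of up to 0.179 and 0.204. The factors with the smallest p for the other complexes did not pass in edgeR, although ECSIT and NDUFAF8 were called lower with no low-count filter: ECSIT (-0.28, adjusted p = 0.0762) and NDUFAF8 (-0.25, adjusted p = 0.0819) of complex I, SDHAF3 of complex II (-0.37, adjusted p = 0.0937), UQCC2 of complex III (-0.21, adjusted p = 0.0821) and ATPAF1 of complex V (-0.12, adjusted p = 0.445). With no low-count filter, 483 of 19876 genes were called lower over the whole table. NDUFAF5, a complex I factor, had 16.2, 16.5 and 16.5 CPM with rhTR11B, against 14.2, 14.52 and 14.49 CPM with PBS (0.19, adjusted p = 0.168).

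Of 31 tested genes for replication, transcription and RNA handling of mitochondrial DNA, 0 were higher, 1 was lower and 22 were below 0 (median -0.05; unadjusted p under 0.05 in 6, all lower). Over all tested genes, 2.92% were higher, 0.678% lower and 50.0% below 0, and 10.3% were lower at an unadjusted p under 0.05. These shares are also the background for the lists that follow. The call was SLIRP, which with LRPPRC holds mitochondrial messengers stable, at 38.9, 33.7 and 34.3 CPM with rhTR11B, against 40.7, 44.0 and 43.7 CPM with PBS (-0.26, SE 0.07, edgeR adjusted p = 0.0493). The rhTR11B libraries were all below the PBS libraries; the call was kept only without rhTR11B replicate 1, with an adjusted p of up to 0.1995 otherwise. The mitochondrial helicase TWNK (-0.24, adjusted p = 0.0779) and the RNA-binding protein GRSF1 (-0.17, adjusted p = 0.117) did not overlap between groups and did not pass; TWNK was called lower with no low-count filter. Of 8 regulators of mitochondrial biogenesis none passed in edgeR (YY1 was called lower with no low-count filter): 6 were below 0 (median -0.14) and 3 had an unadjusted p under 0.05, with YY1 at -0.20 (adjusted p = 0.0851), GABPB1 at -0.25 (0.127) and ESRRA at -0.17 (0.179). Of 11 electron carriers and related proteins outside the rule none passed in edgeR, and all 11 were below 0 (median -0.12), 4 of them at an unadjusted p under 0.05; the Wald test of DESeq2 called HIGD1A lower (adjusted p = 0.0458), and edgeR with no low-count filter or with a replicate block called HIGD1A, COX7A2L and CYCS lower. Cytochrome c, CYCS, had 116, 114 and 89.6 CPM with rhTR11B, against 120.2, 141 and 117 CPM with PBS (-0.25, adjusted p = 0.0928). HIGD1A (-0.26, adjusted p = 0.0732) and COX7A2L (-0.24, adjusted p = 0.0757), which associate with respiratory supercomplexes, also had no overlap. Over the whole table, 346 genes were called lower with DESeq2, 483 with no low-count filter and 252 with the replicate block.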

How the data were processed

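Libraries were prepared with the VAHTS Universal V6 kit from TRIzol-extracted total RNA, per the labels' protocols. The authors deposited read counts per gene symbol and FPKM values. A length per gene was derived from counts, library totals and FPKM, as the median over the 6 libraries. With this length, 100% of the FPKM values matched the count over length and library total (relative tolerance 0.001). The match shows that each gene kept the same length in all libraries, not what that length measures. The submitters' processing notes name fastp, HISAT, HTSeq, R 3.2.0, DESeq2 and genome build GRCh38; annotation, strand setting and the role of each tool are not given there or in the labels.

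From the counts, edgeR 4.0.16 in R 4.3.3 was run on all 6 libraries: filterByExpr (minimum count 10) kept 13567 genes, with TMM scaling and group as the only term; quasi-likelihood p-values were adjusted over those genes (Benjamini-Hochberg). Untested members are given as counts. The standard error is the log2 fold change over the square root of F. The common biological coefficient of variation was 0.0656. Within groups, chi-square per degree of freedom between libraries was 5.33 to 26.1, above sampling noise, and none was taken as a duplicate. Alternatives used other scalings and filters, DESeq2 1.42.0, limma 3.58.1 (voom on counts, trend on log2 FPKM), a replicate block, and fits without each library or without the mitochondrial genes. Promoters came from RefSeq and mitochondrial sequences from GENCODE 29; 94 of 95 members matched the RefSeq table.

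The members, lists and tests were chosen with earlier results of these data known. Named by rule are all mitochondrial subunits, all called members, the members under 1 CPM, and the 3 smallest p and the highest FPKM among the nuclear members of each complex. So are, per list, the called genes and up to 3 with the smallest p. Also named, without a mark, are marker genes, genes given as background, complex III members listed for overlap, and members called in other settings. These were not fixed by the rule. Other names are marked in the text.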

Additional observations from a re-analysis of the deposited data

How the results depend on the processing

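The direction of the 2 gene groups held in every alternative run: at least 12 of 13 mitochondrial subunits were above 0 where they were in the fit, and 67 to 74 of the 77 to 82 nuclear subunits tested were below 0. The counts of calls did not hold, and the cause was not tested except where fewer genes or libraries entered by construction. Mitochondrial subunits called higher numbered 3, and 6 with the DESeq2 Wald test, 12 with no low-count filter, 0 with a mean of at least 5 CPM, and 0, 0 and 0 with limma-trend on log2(FPKM + 1), log2(FPKM + 0.1) and log2(FPKM + 1) without a filter, where 10, 10 and 0 had an unadjusted p under 0.05 (11 at a mean of at least 5 CPM). Nuclear subunits called lower numbered 2, and 6 with DESeq2, 1 with limma-voom, 8 with no filter, 0 with a mean of at least 5 CPM (23 at an unadjusted p under 0.05), 0 with each limma-trend fit (31, 31 and 33) and 0 without the mitochondrial genes (24). The values in brackets count either direction. Over all genes in the same fits, in the same order, an unadjusted p under 0.05 was reached by 2813 of 10371, 2902 of 10812, 2899 of 10812, 3073 of 19876 and 3220 of 13554. COX6A1 was the 1 nuclear subunit called higher with no filter, against 0 otherwise. Over all genes, 396 were higher and 92 lower; these were 761 and 346 with DESeq2, 62 and 21 with limma-trend on log2(FPKM + 1), 64 and 22 on log2(FPKM + 0.1), 0 and 0 without a filter (3073 at an unadjusted p under 0.05), 205 and 26 with a mean of at least 5 CPM, and 940 and 483 with no filter. When a library was left out the calls ranged from 0 to 11 (mitochondrial, higher), 0 to 10 (nuclear, lower), 9 to 903 (all genes, higher; 9 without PBS replicate 3) and 3 to 427 (all genes, lower). The median of nuclear complex I subunits ranged from -0.1291 to -0.0611, the value without rhTR11B replicate 3. The share of counts in mitochondrial subunits exceeded PBS by 1.78 percentage points, and by 1.10 to 2.34 with a library left out. With a library left out, the sign turned in 5 named genes whose log2 fold change then ranged from -0.0294 (without rhTR11B replicate 3) to 0.4789 for ATP8, from -0.0305 (without rhTR11B replicate 1) to 0.3896 for ND6, from -0.0219 (without PBS replicate 2; -9e-04 without rhTR11B replicate 1) to 0.067 for ATPAF2, from -0.0652 to 0.009 (without rhTR11B replicate 3; 0.0038 without PBS replicate 3) for SDHC, and from -0.0476 to 0.0026 (without PBS replicate 3) for KRT8; the cause was not tested.

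With the replicate number as a block, 7 mitochondrial subunits were higher, 4 nuclear subunits lower, and 774 and 252 genes higher and lower overall. The numbers did not pair the libraries: deviations from the group means of same-numbered libraries correlated by -0.105, 0.0506 and -0.00666.

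Each group held 3 libraries, so the counts of calls rest on few values a group.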
